A study of Mus musculus with 9 samples.

Results

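The 5 genes described here are those of adult hemoglobin and of the enzyme that commits a red cell precursor to making haem. They are Hba-a1 and Hba-a2, which encode the alpha chain, Hbb-bs and Hbb-bt, which encode the beta chain, and Alas2, the red cell form of 5-aminolevulinate synthase. They were taken by gene name from the 54532 genes of the deposited tables, and they had been chosen by their FPKM levels in the 3 comparisons below, so those levels are given as a description with no test. The data are RNA sequencing of the hippocampus of 9 mice, in 3 groups of 3. The Con group received a standard diet, the HMD group was kept on a diet high in methionine for 8 weeks, and the Bet+HMD group had the latter diet for 8 weeks and then drank 2.5% (w/v) betaine for 2 weeks. The sources used here do not say whether the high-methionine diet went on during those 2 weeks. High methionine intake raises homocysteine, and betaine is a methyl donor that turns homocysteine back into methionine.

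All mice were C57BL/6 animals of 6 to 8 weeks at purchase, housed in pairs and with no altered allele named, although the strain labels of the 3 Bet+HMD mice read C57BL/6, C57BL/7 and C57BL/8. The labels call the mice male and the study's methods describe female mice. In these libraries the Y-linked gene Ddx3y was at 12.7 to 21.2 FPKM, that is, fragments per kilobase of gene scaled to sequencing depth. Xist, the RNA of a silenced second X chromosome, reached 0.0449 FPKM at most, so the libraries match the male label. One table held the 6 Con and HMD libraries and another held all 9, with 16031464 to 18566712 reads assigned to genes per library. The 3 Bet+HMD libraries were in the 9-library table alone, so a difference of this group from the other groups cannot be told apart from any difference in how its libraries were made. The same holds for age and time at sampling. The 2 weeks of betaine came after the 8 weeks of diet, and no such weeks are given for Con or HMD. The labels do not tie each library to a named animal, and the spread between libraries may include technical spread.

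Hemoglobin is a tetramer of alpha and beta chains, each holding a haem group that binds oxygen. In the adult mouse both alpha genes lie close together on chromosome 11 and both beta genes on chromosome 7, and the products of the clusters are made in step in red cell precursors of the bone marrow. Reticulocytes, the youngest circulating red cells, still carry much globin RNA, so blood left in vessels brings these transcripts into a tissue sample, and globin RNA has also been described in neurons and glia. In a bulk library, fewer cells of a type and less RNA per cell cannot be told apart.

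In GRCm38, the build the authors used under its name mm10, Hba-a1 (ENSMUSG00000069919) spans chr11:32283511-32284465 and Hba-a2 (ENSMUSG00000069917) spans chr11:32296489-32297298, both on the plus strand. Hbb-bs (ENSMUSG00000052305) spans chr7:103826534-103828096 and Hbb-bt (ENSMUSG00000073940) spans chr7:103812524-103813996, both on the minus strand. Alas2 (ENSMUSG00000025270) spans chrX:150547375-150570638 on the plus strand and is overlapped there by Apex2 and Mir3620 on the opposite strand. Whether reads were counted by strand is not given in the sources used here. Apex2, a DNA repair nuclease, was at 0.329 to 0.912 FPKM in all 9 libraries.

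The coding sequences of each pair are printed around the only base at which they differ, because the split of reads between the copies rests on such differences. In the GENCODE M21 transcripts, the 429 coding bases of Hba-a1 and Hba-a2 differ by C381T (counted from 1 at the A of the start codon, Hba-a1 first), and the 444 coding bases of Hbb-bs and Hbb-bt differ by C417T (Hbb-bs first). Both changes are silent, so each pair encodes 1 protein, of 142 residues for alpha and 147 for beta. The windows lie at chr11:32284313-32284373 (+), chr11:32297130-32297190 (+), chr7:103826665-103826722 (-) and chr7:103812656-103812713 (-), each within 1 coding exon, and the capital marks the differing base.
Hba-a1: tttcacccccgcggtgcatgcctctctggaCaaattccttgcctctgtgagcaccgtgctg
Hba-a2: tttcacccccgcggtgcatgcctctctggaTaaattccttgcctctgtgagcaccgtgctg
Hbb-bs: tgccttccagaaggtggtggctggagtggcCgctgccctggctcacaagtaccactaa
Hbb-bt: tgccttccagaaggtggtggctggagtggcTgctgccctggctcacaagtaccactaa

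Of the 405 stretches of 150 bases (the read length) in the Hba-a2 transcript, 139 do not occur in that of Hba-a1, and of the 550 stretches in the Hba-a1 transcript, 284 do not occur in that of Hba-a2. For the beta genes these counts were 273 of 554 for Hbb-bt and 198 of 479 for Hbb-bs. The annotated leader before the start codon is 196 bases in Hba-a1 and 35 in Hba-a2. The Hba-a1 transcript of GENCODE starts 161 bases upstream of the RefSeq start, and that of Hba-a2 starts 3 bases upstream. The stretches were compared between transcripts, while the authors aligned reads to the genome. Those 161 bases lie where the sequences before both alpha genes are identical. The 284 therefore include stretches that the genome also holds just before Hba-a2, and overstate how well reads can mark Hba-a1. A read from the shared stretches cannot be assigned to 1 copy by its sequence, and how the authors' counting treated such reads is not given in the sources used here.

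Promoter sequence (RefSeq, GRCm38.p6, which held all 5 genes) is shown because the globin genes had higher mean levels together under the diet. Over 297 bases, aligned with a shift of 3 bases, those of Hba-a1 and Hba-a2 were identical. The beta promoters matched at 168 of 299 bases. The stretches printed lie just upstream of the annotated transcript, at chr11:32296392-32296488 (+) for Hba-a2, chr7:103827929-103828028 (-) for Hbb-bs and chrX:150547317-150547374 (+) for Alas2. Capitals mark 4 motifs searched on both strands. These were the CCAAT box, the KLF-type box with the letters CACCC, the letters GATA, and TATA, and no match of one overlapped a match of another in the printed stretches.
Hba-a2: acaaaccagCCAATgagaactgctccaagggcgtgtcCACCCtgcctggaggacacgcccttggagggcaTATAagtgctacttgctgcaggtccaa
Hbb-bs: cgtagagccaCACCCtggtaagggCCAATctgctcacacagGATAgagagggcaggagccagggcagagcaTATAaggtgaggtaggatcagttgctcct
Alas2: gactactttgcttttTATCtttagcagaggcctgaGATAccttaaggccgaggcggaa

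In the 100 bases before the RefSeq start, all 4 globin promoters held the CCAAT box, the CACCC box and the letters TATA, with CCAAT on the strand of the gene beginning 75 to 91 bases before the start. Alas2 held CACCC 3 times on the opposite strand and GATA 2 times, and had neither a CCAAT box nor TATA. Hbb-bs was the only globin promoter with GATA in this window. Among 32851 mouse promoters, the same 100 bases held CCAAT in 18.9%, CACCC in 27.2%, GATA in 25.0% and TATA in 15.2%. GATA is the core of the site of GATA1 and CACCC that of KLF1, both master regulators of red cell genes, and a match of letters is a description and not a binding site.

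Per length, the beta gene Hbb-bs was the highest of the 5 in Con (59.8 ± 23.5 FPKM, SD, n = 3, 9-library table), followed by Hba-a1 (40.8 ± 5.51), Hba-a2 (11.4 ± 4.71), Hbb-bt (6.37 ± 1.98) and Alas2 (1.13 ± 0.0303). The ranges of Hbb-bs and Hba-a1 did not overlap in Con (45.3 to 86.9 against 34.6 to 45.1 FPKM), although their nearest values differed by less than the spread within each gene. Those of Hba-a2 and Hbb-bt overlapped. The 4 globin genes together took 72.0 to 116 reads for every 1000000 assigned in Con, and Alas2 rested on 45 to 49 reads per library. The plot of the members by library shows all 9 values for each gene.

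**Figure D1:**
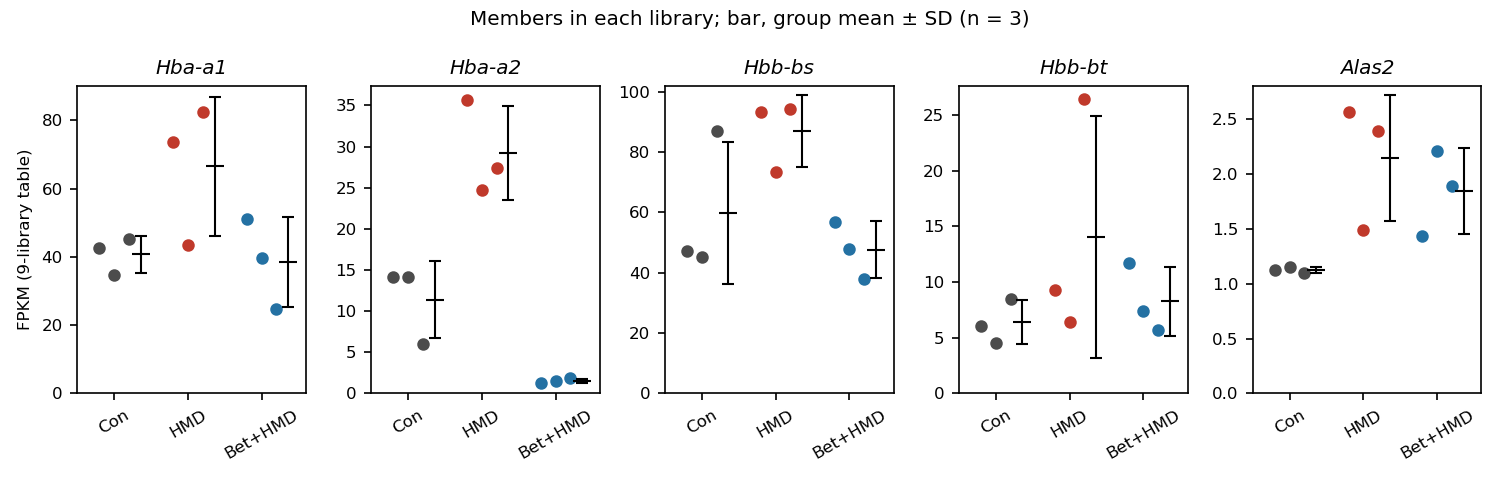
FPKM of each member (vertical axis, linear, from 0) in the 9 libraries of Con, HMD and Bet+HMD, 1 panel per gene; points are libraries and the bar is the group mean ± SD (n = 3). Hba-a2 was at 1.29 to 1.81 FPKM in the 3 Bet+HMD libraries, below all Con and HMD libraries, while Hba-a1 and Hbb-bt of the groups overlap.

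The first comparison asked how the high-methionine diet was associated with hippocampal RNA, and it was made in the 6-library table. All 5 genes had higher mean FPKM in HMD than in Con, by 1.43 times for Hbb-bs to 2.59 times for Hba-a2. Their mean difference was 0.81 on the log2(FPKM + 1) scale, where the median of all 12989 genes tested was -0.0038. The replicates did not overlap for 2 of the 5, Hba-a2 and Alas2, both higher in HMD. Of all genes tested, 4.71% were higher in HMD with no overlap of replicates and 4.66% were lower with none. No gene of the hippocampus reached an adjusted p under 0.05 (0% of 12989 genes, limma with Benjamini-Hochberg adjustment), 592 had an unadjusted p under 0.05, and limma voom on the recovered reads also called 0.

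Hba-a2 had the widest relative difference. It was at 14.0, 14.0 and 5.96 FPKM in Con 1 to 3 and at 36.2, 24.5 and 27.1 FPKM in HMD 1 to 3, a log2 difference of 1.37. The lowest HMD library was well above the highest Con library, and Con 3 was the lowest of all 6. Its difference ranked 8th highest among the genes tested, with 0.0539% of genes above it. Hba-a1, which encodes the same protein, was at 42.0, 33.9 and 44.1 FPKM in Con and at 73.3, 42.7 and 81.2 FPKM in HMD, a log2 difference of 0.66. Here HMD 2 lay within the Con range and the other 2 HMD libraries stood above it.

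Hbb-bs, the beta gene with the higher level, was at 46.7, 44.2 and 87.7 FPKM in Con and at 92.5, 70.6 and 92.9 FPKM in HMD, a log2 difference of 0.57. Con 3 had about the level of the HMD libraries and exceeded HMD 2, and without Con 3 the difference was 0.88. Hbb-bt, the other beta gene, was at 6.55, 4.76 and 8.64 FPKM in Con and at 10.6, 7.23 and 26.2 FPKM in HMD, a log2 difference of 0.87. HMD 3 alone was far above the rest, and without it the difference was 0.38.

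Alas2, whose product makes the first intermediate of haem in red cell precursors, had the narrowest spread in Con. It was at 1.09, 1.12 and 1.11 FPKM in Con and at 2.46, 1.78 and 2.34 FPKM in HMD, which is 1.98 times the Con mean and a log2 difference of 0.59. The 3 Con libraries held 49, 45 and 47 reads of Alas2 and the HMD libraries held 110, 69 and 100. Counting error alone at 45 to 49 reads is wider than the Con spread, so that spread understates the uncertainty of Alas2 in Con. All 3 HMD libraries were above all 3 Con libraries. The pseudocount lowers this difference in a gene so close to 1 FPKM, and with a pseudocount of 0.1 it was 0.91 (0.96 by voom).

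HMD 2 was the lowest HMD library for all 5 genes in both tables. Con 3 was the highest Con library for Hba-a1, Hbb-bs and Hbb-bt and the lowest for Hba-a2. Con 1 and HMD 2 also had the lowest summed FPKM of 9 choroid plexus markers in their groups (779 against up to 3229 in Con, 880 against up to 2601 in HMD, 9-library table). The part of dissection in the members' levels was not tested.

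The second comparison set Bet+HMD against HMD, in the 9-library table. All 5 genes had lower mean FPKM in Bet+HMD, with a mean log2 difference of -1.17, where the median of all genes tested was -0.03. The mean was -0.58 without Hba-a2 and -0.75 with the copies of each chain summed. The HMD mean was 1.73 times the Bet+HMD mean for Hba-a1, 19.0 times for Hba-a2, 1.83 times for Hbb-bs, 1.70 times for Hbb-bt and 1.16 times for Alas2. The replicates did not overlap for 2 of the 5, Hba-a2 and Hbb-bs, both lower in Bet+HMD. Of the 13672 genes tested, 31.8% were lower and 28.3% higher in Bet+HMD with no overlap, so an absence of overlap was common in this comparison. By limma, 25.5% of genes were lower and 22.8% higher at an adjusted p under 0.05. Higher genes made up 47.2% of the calls on the FPKM scale, 69.5% after scaling to TPM and 57.9% by voom on the reads. Scaling to TPM moved the median of all genes from -0.03 to 0.16 on the log2 scale.

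Hba-a2 stood apart from the other globin genes. It was at 35.6, 24.7 and 27.4 FPKM in HMD 1 to 3, from 413, 252 and 309 reads. In Bet+HMD 1 to 3 it was at 1.29, 1.53 and 1.81 FPKM, from 15, 18 and 21 reads. The groups were separated by more than the whole range within either, and the log2 difference of -3.56 was the 5th lowest of all genes tested. It lay between -4.15 and -3.41 under every alternative setting tried.

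Hba-a1, the sister copy, was at 73.6, 43.5 and 82.5 FPKM in HMD and at 51.0, 39.6 and 24.7 FPKM in Bet+HMD, a log2 difference of -0.78. Bet+HMD 1 exceeded HMD 2, so the groups overlapped, and without Bet+HMD 3 the difference was -0.50. Hbb-bs was at 93.2, 73.4 and 94.4 FPKM in HMD and at 56.9, 47.8 and 38.1 FPKM in Bet+HMD, a log2 difference of -0.87 with no overlap. Of all genes tested, 5.44% had a lower log2 difference than Hba-a1 and 4.17% a lower one than Hbb-bs.

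Hbb-bt was at 9.25, 6.40 and 26.4 FPKM in HMD and at 11.7, 7.40 and 5.72 FPKM in Bet+HMD. Its log2 difference of -0.51 rested on HMD 3, and without that library it was 0.04, while without HMD 2 it was -0.91 and without Bet+HMD 3 it was -0.31. Alas2 was at 2.56, 1.49 and 2.39 FPKM in HMD and at 1.44, 2.21 and 1.89 FPKM in Bet+HMD, a log2 difference of -0.14. Leaving out 1 library moved it between -0.30 (without HMD 2) and -0.03 (without Bet+HMD 1), and on the TPM scale it was -0.0040. The Alas2 values of the groups were interleaved, and 40.1% of all genes tested had a lower log2 difference. HMD 2 held 69 reads of Alas2 in the 6-library table and 55 in the 9-library table.

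The share of the second copy within each chain was read from the recovered reads. Hba-a2 made up 21.4%, 25.2% and 9.78% of the reads of both alpha genes in Con 1 to 3 and 28.5%, 31.8% and 21.4% in HMD 1 to 3. In Bet+HMD 1 to 3 its share was 2.04% (95% Clopper-Pearson interval 1.15% to 3.34%), 3.07% (1.83% to 4.80%) and 5.68% (3.55% to 8.55%). The highest upper bound in Bet+HMD was above the lowest bound of Con 3 (7.68%) and below that of every other Con or HMD library. These intervals cover counting error only, since reads copied by PCR are not independent molecules.

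Hbb-bt made up 8.20% to 10.5% of the beta-gene reads in Con, 8.33%, 7.40% and 20.4% in HMD 1 to 3, and 15.9%, 12.4% and 12.1% in Bet+HMD 1 to 3. HMD 3, the library with the highest Hbb-bt level, thus also had the highest share, and the other 2 HMD libraries were at the level of Con. In both chains the Bet+HMD shares lay outside the Con range, below it for Hba-a2 and above it for Hbb-bt.

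**Figure D2:**
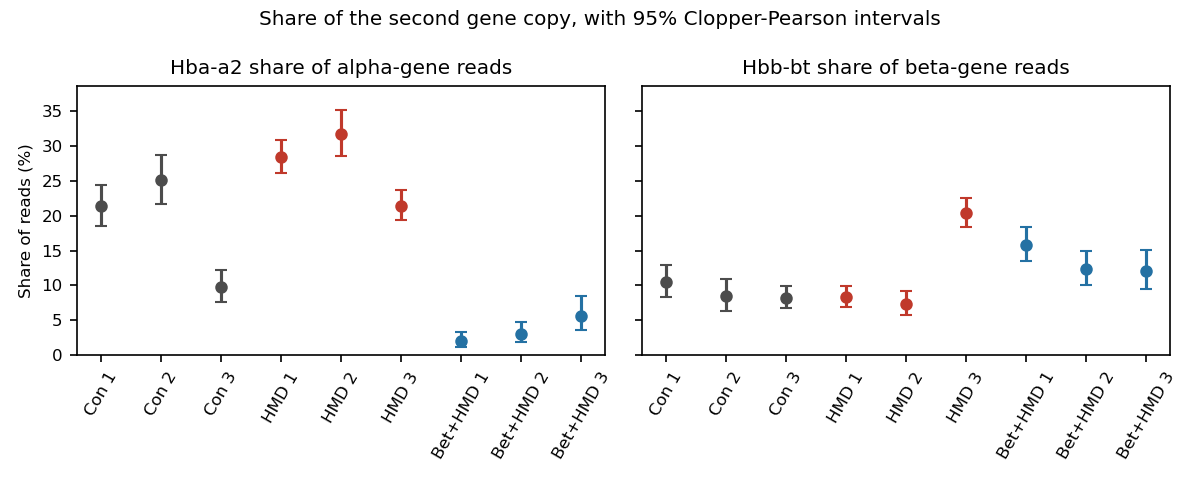
Share of reads (vertical axis, %) of Hba-a2 among both alpha genes (left) and of Hbb-bt among both beta genes (right) in each of the 9 libraries, coloured by group; points are single libraries and bars are 95% Clopper-Pearson intervals. Hba-a2 is at 2.04% to 5.68% in Bet+HMD and at 9.78% to 31.8% in the other libraries, and Hbb-bt is highest in HMD 3 at 20.4%.

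Set against the summed beta FPKM, Hba-a1 was at a ratio of 0.655 ± 0.166 (SD, n = 3) in Con, 0.649 ± 0.0918 in HMD and 0.675 ± 0.0972 in Bet+HMD. These ratios differed by less than their spread. The same ratio for Hba-a2 was 0.204 ± 0.123 in Con, 0.295 ± 0.0618 in HMD and 0.0293 ± 0.0113 in Bet+HMD. The Hba-a2 ratios of Bet+HMD lay below those of all 6 other libraries. For Alas2 the ratio was 0.0186 ± 0.00625 in Con, 0.0212 ± 0.00338 in HMD and 0.0347 ± 0.0120 in Bet+HMD.

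Since the copies of a chain share most of their sequence, the chains were also summed. The alpha genes together were at 52.2 ± 4.07 FPKM in Con, 95.8 ± 23.9 in HMD and 40.0 ± 13.0 in Bet+HMD, and the beta genes together at 49.9 to 95.4 FPKM in Con, 79.8 to 121 in HMD and 43.8 to 68.6 in Bet+HMD. On the log2 scale the summed alpha genes were 0.84 higher in HMD than in Con (6-library table) and differed by -1.26 between Bet+HMD and HMD. For the summed beta genes these differences were 0.63 and -0.85. All globin reads together came to 108 to 177 for every 1000000 in HMD and 56.8 to 98.6 in Bet+HMD.

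Other genes of the length of the globin genes, and much of the whole profile, also differed between Bet+HMD and HMD. The 65 other protein-coding genes tested whose lengths lay between those of the 4 globin genes (667 to 812 bases) had a median log2 difference of -0.35 against HMD, with 43.1% called lower and 6.15% called higher. Among all 11951 protein-coding genes tested, the median was -0.06, with 27.4% called lower and 19.8% called higher. Ribosomal protein genes, a set chosen after the data were seen and with lengths of 374 to 11932 bases, had a median of -0.89 over 89 genes. The part of transcript length in the globin differences was not tested.

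The third comparison set Bet+HMD against Con, also in the 9-library table. Here the 5 genes did not go one way, and their log2 differences were -0.13 for Hba-a1, -2.20 for Hba-a2, -0.28 for Hbb-bs, 0.32 for Hbb-bt and 0.41 for Alas2. The mean was -0.38 with Hba-a2 and 0.08 without it, where the median of all genes tested was -0.04. The replicates did not overlap for Hba-a2, which was lower in Bet+HMD, and for Alas2, which was higher. Of the 13643 genes tested, 29.0% were lower and 26.1% higher in Bet+HMD with no overlap. By limma, 20.4% were lower and 19.4% higher at an adjusted p under 0.05. The share of higher genes among the calls was 48.8%, against 73.5% on the TPM scale and 59.7% by voom, and TPM moved the median of all genes from -0.04 to 0.17.

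Hba-a2 was at 14.1, 14.2 and 5.96 FPKM in Con 1 to 3 of this table, so the Con mean was 7.39 times the Bet+HMD mean. The nearest libraries, Con 3 and Bet+HMD 3, were at 5.96 and 1.81 FPKM. Alas2 was at 1.13, 1.16 and 1.09 FPKM in Con, and the Bet+HMD mean was 1.64 times as high. Bet+HMD 1, at 1.44 FPKM, was the nearest to Con. The log2 difference of Alas2 was larger under other scalings, at 0.65 with a pseudocount of 0.1 and 0.77 both on the TPM scale and by voom.

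Hba-a1, at 42.6, 34.6 and 45.1 FPKM in Con, overlapped with Bet+HMD, and its small difference turned to 0.08 on the TPM scale and to 0.15 without Bet+HMD 3, and was -0.05 by voom, -0.36 without Bet+HMD 1, -0.24 without Con 2 and -0.06 without Con 3. Hbb-bs, at 47.2, 45.3 and 86.9 FPKM in Con, overlapped too, and its difference was 0.02 without Con 3, -0.44 without Con 2, -0.13 without Bet+HMD 3 and -0.06 on the TPM scale. Hbb-bt, at 6.06, 4.56 and 8.48 FPKM in Con, was 1.30 times as high on average in Bet+HMD, with 2 of the 3 Bet+HMD libraries within the Con range, and its log2 difference was 0.56 on the TPM scale, 0.06 without Bet+HMD 1, 0.52 without Bet+HMD 3, 0.13 without Con 2 and 0.51 without Con 3. The plot of the differences under each setting shows which members kept their side of 0.

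**Figure D3:**
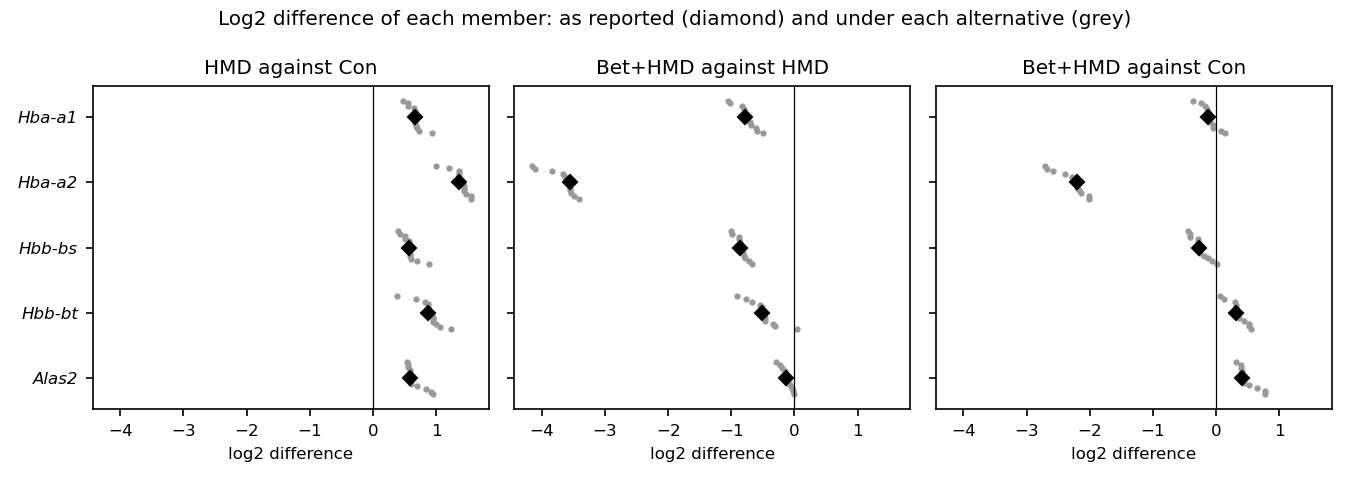
Log2 difference of each member (horizontal axis, first group minus second, linear) in the 3 comparisons; diamonds are the values reported in the text and grey points those under each alternative setting. Hba-a2 stays between -4.15 and -3.41 against HMD, while Hba-a1 and Hbb-bs lie on both sides of 0 in Bet+HMD against Con.

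The 3 comparisons share their groups, so the pattern of one fixes part of the others. The 6 Con and HMD libraries were in both tables, and each held 0.312% to 5.49% fewer assigned reads in the 9-library one. Hba-a1 lost 0.476% to 6.06% of its reads, Hba-a2 1.92% to 8.02%, Hbb-bs 0.704% to 5.83%, Hbb-bt 3.98% to 18.1% and Alas2 0% to 20.3%. The 20.3% loss of Alas2 was that of HMD 2 alone, and its losses in the other libraries were 4.26% or less.

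The other genes of the globin clusters were at or near 0. Of 9 listed, Hba-x, Hbb-bh0, Hbb-bh1, Hbb-bh2 and Hba-ps3, which are embryonic globin genes and pseudogenes, had 0 reads in all 9 libraries, and Hbb-y had 3 reads in 1 library. A count of 0 allows up to 3 reads. Hbq1a and Hbq1b, the theta-like genes downstream of the alpha genes, reached 14 and 13 reads at most, and the alpha pseudogene Hba-ps4 reached 9. None of the 9 passed the filter on low values. Outside the clusters, Cygb, the cytoglobin of many tissues, was at 19.2 ± 1.79 FPKM in Bet+HMD and 22.0 FPKM on average in HMD. Ngb, the neuronal globin, fell from 2.39 to 4.12 FPKM in HMD to 1.20 to 1.77 in Bet+HMD (adjusted p = 0.0112). Against Con the Ngb difference of -0.35 did not pass (adjusted p = 0.0767).

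Red cell genes other than the members were in 2 lists, of 15 membrane genes and of 15 genes of the cytosol and of maturation, 14 of which were in the tables. Several genes particular to red cells were near 0. Slc4a1, the anion exchanger band 3, reached 12 reads at most, Epb42 8 reads, Rhag 2 reads and Hemgn 2 reads. Of the 14 genes tested, none was called by limma for HMD against Con, where 1 had an unadjusted p under 0.05. Voom also called 0 there.

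Against HMD, 2 of 6 tested membrane genes rose in Bet+HMD, and 4 of 8 tested cytosol and maturation genes fell. Among all genes, 22.8% were called higher and 25.5% lower against HMD, and 19.4% and 20.4% against Con. Tmod1, which caps actin filaments, rose from 3.58 ± 0.487 to 6.97 ± 0.234 FPKM (adjusted p = 0.000673), and Epb41, the spectrin-binding protein 4.1, from 2.65 ± 0.198 to 4.61 ± 0.0461 (adjusted p = 0.000876). Prdx2, an antioxidant enzyme, fell from 48.0 ± 1.17 to 22.4 ± 2.57, Mkrn1 from 25.1 ± 2.76 to 14.5 ± 0.432, and Bnip3l, a mitophagy receptor, from 42.0 ± 2.32 to 34.4 ± 1.02. Of the 4 tested genes of both lists that averaged under 5 FPKM over the 9 libraries, 2 were called against HMD and 3 against Con. The median log2 difference was 0.24 for the membrane list and -0.30 for the cytosol list, beside -0.03 for all genes. On the TPM scale 5 membrane genes rose and 3 cytosol genes fell against HMD. Of all genes tested on that scale, 4496 of 13672 rose and 1974 fell against HMD. Against Con, 3980 of 13643 rose and 1432 fell on it. These counts, and not the shares as FPKM, are the background of the TPM counts of the lists below. Against Con, 3 membrane genes rose (Epb41, Tmod1 and Ank1) and 4 cytosol genes fell, among them Prdx2, Mkrn1 and Car2.

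The rest of the haem pathway went both ways. Of 12 genes for haem synthesis other than Alas2, 0 were called for HMD against Con, with a median log2 difference of 0.05. Against HMD, 2 rose and 6 fell in Bet+HMD, where 22.8% of all genes rose and 25.5% fell. Ppox, which makes protoporphyrin, rose from 1.94 ± 0.340 to 5.83 ± 0.376 FPKM (adjusted p = 0.000202), and the mitochondrial iron importer Slc25a37 rose from 3.59 ± 0.639 to 6.17 ± 0.405. Tmem14c, a porphyrin carrier, fell from 22.3 ± 1.52 to 12.2 ± 1.25, and Alad, the enzyme after Alas2 in the pathway, from 8.99 ± 1.87 to 5.24 ± 0.750. On the TPM scale 2 rose and 2 fell against HMD. Against Con, 2 rose and 4 fell, as FPKM.

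Of the transcription factors of red cell precursors, 4 were near the limit of detection, and others that further cell types also use were not. Gata1 reached 7 reads at most, Klf1 9, Nfe2 1 and Gfi1b 0. Tal1 reached 62 reads and 0.815 FPKM, Lmo2 was at 4.10 to 9.47 FPKM over the 9 libraries, and Zfpm1, a cofactor of GATA factors, at 7.69 to 13.2 FPKM. Of 4 tested genes of the list of erythroid transcription factors and receptor, Bcl11a, a repressor of fetal-type globin that is also a cortical neuron factor, was called in both Bet+HMD comparisons. It was at 9.68 ± 0.282 FPKM in Bet+HMD and at 6.76 ± 0.767 in HMD (adjusted p = 0.00478). Epor, the erythropoietin receptor, was at 1.18 to 2.50 FPKM in the 9 libraries.

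Among genes that clear haem and hemoglobin, 0 of 10 were called for HMD against Con. Against HMD, 2 of 9 tested rose in Bet+HMD and 0 fell, where 22.8% of all genes rose and 25.5% fell. Flvcr1, a haem exporter, rose in Bet+HMD to 4.74 ± 0.241 from 2.89 ± 0.168 FPKM in HMD (adjusted p = 0.00141), and Lrp1, which takes up haem bound to hemopexin, to 30.8 ± 0.650 from 24.1 ± 1.03. Against Con, 2 of 10 tested rose and 1 fell. Hmox1, the inducible haem oxygenase, was at 1.30 to 2.37 FPKM in all libraries. In the iron list, 0 of 13 were called for HMD against Con, and 5 of 12 fell in Bet+HMD against HMD with none higher. Among all genes tested in the latter comparison, 25.5% fell and 22.8% rose. Fth1, the ferritin heavy chain, fell from 2942 ± 424 to 1224 ± 126 FPKM (adjusted p = 0.000401), Ftl1, its light chain, from 49.9 ± 3.34 to 28.1 ± 3.42, and Trf, the transferrin, from 4.26 ± 1.18 to 1.80 ± 0.0925. The median of the iron list was -0.15, and on the TPM scale it was 0.01, with 4 genes lower and 0 higher.

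Of 11 tested genes of the hypoxia response, 0 were called for HMD against Con. In Bet+HMD against HMD 1 rose and 5 fell, with a median of -0.28, and on the TPM scale 2 rose and 3 fell. Among all genes tested there, 22.8% rose and 25.5% fell as FPKM. Vegfa rose from 8.08 ± 0.723 to 22.0 ± 0.778 FPKM (adjusted p = 5.5e-05), while the glycolytic genes Ldha and Pgk1 fell, Ldha from 63.8 ± 6.11 to 40.0 ± 2.96. The 10 neighbours of the members on their chromosomes did not share one direction either. Of 8 tested, 0 were called for HMD against Con. Against HMD, 1 rose and 3 fell (4 and 2 on the TPM scale), among them Snrnp25, a splicing factor gene beside the alpha cluster, from 8.33 ± 2.72 to 3.08 ± 0.938 (adjusted p = 0.00889).

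**Figure D4:**
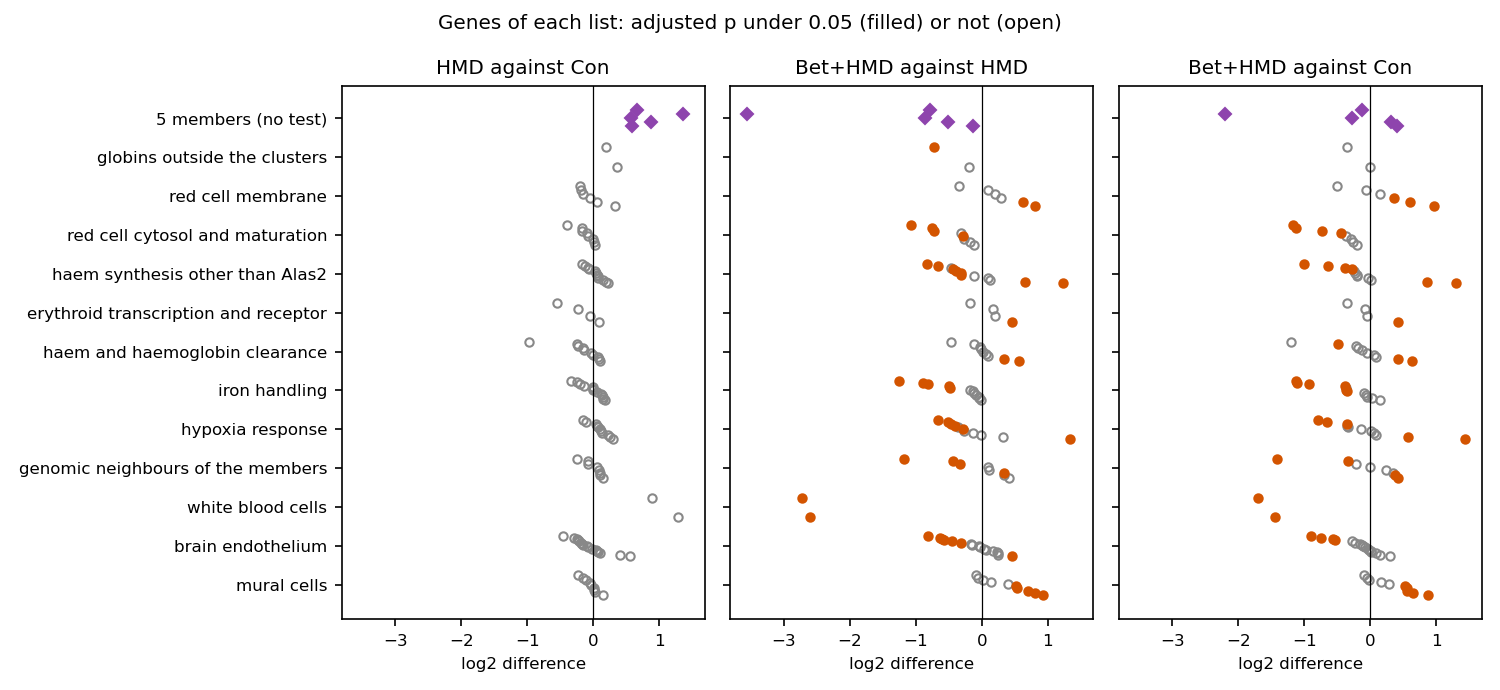
Log2 difference (horizontal axis, first group minus second, linear) of the members and of every tested gene in 12 lists, in the 3 comparisons; filled points passed an adjusted p under 0.05 (limma), open points did not, and the members carry no test. No listed gene passed in HMD against Con. Both tested white blood cell genes passed in the Bet+HMD comparisons, which they entered only through their HMD or Con levels.

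Markers of other blood cells and of vessels were read beside the members. Of 15 white blood cell genes, S100a8 and S100a9, carried by neutrophils, passed the filter. S100a9 was at 1.59 to 3.70 FPKM in Con, 5.33 to 10.9 in HMD and 0 to 0.441 in Bet+HMD, and S100a8 at 1.59 to 4.36, 3.41 to 7.24 and 0 to 0.0829. Neither was called for HMD against Con (adjusted p = 0.726 for S100a9), and both fell against HMD (adjusted p = 0.000285 for S100a9 and 0.000205 for S100a8) and against Con. Both entered these tests only through their HMD or Con levels, so their falls were largely fixed by the filter. Among all genes, 25.5% were called lower against HMD and 20.4% against Con. The summed FPKM of the 15 genes was 4.39 to 7.56 in Con, 12.2 to 22.0 in HMD and 0.640 to 1.43 in Bet+HMD, with no overlap between groups. In HMD, S100a8 and S100a9 averaged 5.62 and 7.28 FPKM of a mean sum of 16.4, so that sum was mostly these 2 genes. Not all listed genes followed the order of the sum, and Cd3g and Elane had at most 3 reads in any library. The 11 platelet genes, none of which passed the filter, summed to 2.41 to 3.28 FPKM in Con, 2.19 to 2.84 in HMD and 1.87 to 2.21 in Bet+HMD.

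The 17 markers of brain endothelium summed to 161 to 168 FPKM in Con, 162 to 174 in HMD and 124 to 129 in Bet+HMD. Of them, 0 were called for HMD against Con, and 1 rose and 6 fell in Bet+HMD against HMD, among them the glucose transporter Slc2a1, from 50.6 ± 3.16 to 28.2 ± 1.07. On the TPM scale 4 rose and 4 fell. Among all genes, as FPKM, 22.8% were called higher and 25.5% lower against HMD, and 19.4% and 20.4% against Con. Of 10 tested genes of mural cells, which wrap the vessels, 5 rose in Bet+HMD and 0 fell, among them Acta2 from 8.45 ± 0.564 to 14.4 ± 0.808. The 9 choroid plexus markers summed to 951 to 1227 FPKM in Bet+HMD, and 0 of them were called in any of the 3 comparisons. The 7 thalamus markers summed to 14.9 to 23.6 FPKM in Con, 34.6 to 95.2 in HMD and 28.5 to 29.7 in Bet+HMD. Against HMD 2 of them fell and 0 rose, and against Con 2 rose and 0 fell. The 10 markers of hippocampal subfields summed to 187 FPKM or more in every library, and 2 fell in Bet+HMD against HMD and 3 against Con, with 0 higher (3 and 4 higher on the TPM scale). Fibcd1, a marker of the CA1 subfield, was at 35.1 ± 4.79 FPKM in Con, 24.1 ± 3.31 in HMD and 13.3 ± 0.223 in Bet+HMD (adjusted p = 0.000893 against HMD), and Spink8, also of CA1, at 22.7 ± 3.43, 17.6 ± 3.19 and 7.10 ± 1.15 (adjusted p = 0.000806 against HMD). The part of blood left in the tissue, of vessel cells and of dissection in the members' levels was not tested.

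The genes whose profile lay nearest that of the members were found among 13459 genes by the root mean square distance between centred log2(FPKM + 1) profiles over the 9 libraries. Nfkbia, an inhibitor of NF-kappaB, was the nearest at a distance of 0.167, followed by Fkbp5, a co-chaperone of steroid receptors, at 0.221, Tmem41a at 0.228, Wnt3 at 0.241 and Pnpla2, a lipase of lipid droplets, at 0.243. Nfkbia was at 13.4 to 15.5 FPKM in Con, 19.5 to 24.5 in HMD and 7.96 to 9.69 in Bet+HMD. Of the members themselves, Hba-a1 was at 0.231 from their shared mean profile, Hbb-bs at 0.268, Alas2 at 0.480, Hbb-bt at 0.490 and Hba-a2 at 1.10, where the median of all compared genes was 0.558. Hba-a2 was thus farther from the members' mean than a gene at the median.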

How the data were processed

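Hippocampal total RNA of 9 mice was sequenced after depletion of ribosomal RNA, as paired-end stranded libraries. According to the labels, the authors aligned reads to mm10 with HISAT2 (2.1.0) and counted them per gene with featureCounts (1.5.0-p3). The deposited values are FPKM, in a table of 6 libraries and one of 9. The control columns carry a prefix read here as Con. The members and the gene lists were chosen with earlier results of these data known.

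FPKM values were turned back into whole reads (100% of values within 0.05 of a whole number). Intervals for shares are Clopper-Pearson at 95% (SciPy 1.17.1). Groups were compared within 1 table by limma 3.58.1 (R 4.3.3) on log2(FPKM + 1), with a mean of at least 1 FPKM over the libraries compared, a trended prior and Benjamini-Hochberg adjustment at 0.05. The test was checked on simulated data. No count model was used as the main test. Standard settings were replaced one at a time (pseudocount, filter, TPM, centring, voom on the recovered reads, replicate block, pooled groups, prior, each library left out). Genes named are the members, up to 4 called genes per list by size of difference or else the 2 highest, and the 5 nearest profiles. Defining markers near 0, Hmox1, Epor, Apex2, Ddx3y and Xist were named after their values were seen. Some genes that this rule names are not reported here by name. Sequences came from GENCODE M21 and RefSeq.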

Additional observations from a re-analysis of the deposited data

How the results depend on the processing

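In HMD against Con the mean log2 difference of the members stayed between 0.67 and 1.01 under all alternatives. The count of called genes, 0 as reported, was 9 with all 3 groups in 1 fit and 0 to 2 with 1 library left out (2 without Con replicate 2). In Bet+HMD against HMD the mean of -1.17 was -0.75 with the copies of each chain summed and -0.58 without Hba-a2, both chosen after seeing the data, and -1.38 to -1.01 with 1 library left out. The 6607 called genes became 4166 with a filter at 5 FPKM. In Bet+HMD against Con the mean of -0.38 was -0.57 with that filter, which drops Alas2, -0.21 on the TPM scale, -0.0712 with the copies summed and 0.0795 without Hba-a2, and the cause of the TPM shift was not tested. The 5422 called genes became 3260 with the filter at 5 FPKM and 3302 to 6269 with 1 library left out, falling to 3424, 3347 and 3302 without Bet+HMD replicates 1, 2 and 3. The red cell genes called numbered 6 against HMD and 7 against Con, and 2 and 3 without genes at 5 FPKM or more. Of the called genes of the other lists, 0 changed sign on the TPM scale, under median centring (both planned for the fit, and read for the lists after seeing the data) or by voom. Of 155 values of single members under the alternatives that can move them (the filters and the replicate block cannot), 144 moved by less than 1 SD of the replicates and 4 changed sign. With 3 libraries per group, leaving out 1 library cannot move a difference by 1 SD. The values with 1 library left out are therefore among the 144 by construction and do not show stability.

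Limma voom on the recovered reads called 0, 6798 and 5511 genes in the 3 comparisons. With the replicate number as a block (replicate block), 0, 5615 and 3924 genes were called in the 3 comparisons, with 0, 5 and 5 of the red cell genes. The block cannot change a difference of means in this balanced design. Same-numbered libraries did not deviate together in every pair (correlations -0.0555 to 0.346 for HMD and Con, -0.151 to 0.0171 for Bet+HMD and HMD, and -0.176 to -0.0489 for Bet+HMD and Con). Libraries of different numbers were not compared, so these values cannot show whether the numbers pair the samples. With 3 libraries per group, 15 to 21 reads of Hba-a2 in Bet+HMD and 45 to 110 reads of Alas2 limit the precision.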
